A study of Homo sapiens with 6 samples.

Results

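The solute carriers described here are the sugar, ion and organic ion transporters of the SLC2, SLC4, SLC5, SLC9, SLC12, SLC13, SLC20, SLC22, SLC34 and SLC47 families. They were taken by gene symbol alone, which gave 74 of the 34157 genes listed. RNA was sequenced from HK-2 cells, an established human line derived from proximal tubule epithelium. The control group was 3 libraries of HK-2 cells, called wildtype in the design text, and the treated group was 3 libraries of HK-2 cells given GDF5, a ligand of the bone morphogenetic protein family, at 100 ng/ml for 48 hours. The series title asks about injury of the tubule and partial epithelial-mesenchymal transition in diabetic kidney disease. The labels do not state that a group's 3 libraries are independent cultures, and the p-values therefore reflect library-to-library spread that could be technical. In bulk RNA, fewer cells of a type and less RNA per cell cannot be told apart.

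The proximal tubule takes back most of the filtered glucose, phosphate, bicarbonate and sodium. Sodium-coupled carriers on its apical side (SLC5, SLC34, SLC9) draw solutes in along the sodium gradient made by the sodium pump. Facilitative and exchange carriers on the basolateral side (SLC2, SLC4) pass them on to the blood, and the organic ion carriers (SLC22, SLC47) move drugs, urate and metabolic wastes between blood and urine.

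Levels are in RPKM, reads per kilobase of exon scaled to the library's reads assigned to genes, so genes can be set side by side. The 6 libraries held 43885662 to 56041290 reads assigned to genes, recovered from the RPKM steps. Of the 7 proximal tubule markers looked at, PAX8 (36.9 RPKM in control) and GGT1 (2.30) were above 1 RPKM. The other 5, among them the endocytic receptors LRP2 and CUBN and the transcription factor HNF4A, were under 0.1 RPKM in every library. Summed, the 7 ran from 35.6 to 42.0 RPKM in control and from 27.7 to 30.2 RPKM with GDF5. All 5 epithelial markers averaged above 1 RPKM over the 6 libraries and summed to 333.8 to 351.9 RPKM in control and 283.3 to 308.5 RPKM with GDF5. Among them EPCAM was at 111.5 RPKM in control and 75.9 RPKM with GDF5. KRT19 was at 124.6 and 117.1 RPKM and KRT18 at 33.7 and 29.3 RPKM, while KRT8 went the other way, at 68.7 and 71.1 RPKM. CDH1, which encodes E-cadherin, was at 1.62 RPKM in control and 0.834 RPKM with GDF5. Of the 4 distal nephron markers 2 were measured, and their sum was 5.87 to 6.79 RPKM in control and 3.66 to 3.83 RPKM with GDF5. Nearly all of it was SCNN1A, a subunit of the epithelial sodium channel, at 6.21 and 3.73 RPKM, with CALB1 at 0.011 and 0.014 RPKM. The part of these shifts in the carriers' values was not tested. The 5 fibroblast markers summed to 7.02 to 7.30 RPKM in control and 7.10 to 7.66 RPKM with GDF5. Of them 2 were above 1 RPKM and moved in opposite directions. DCN was at 4.02 RPKM in control and 3.5 RPKM with GDF5, and COL1A1 at 3.07 and 3.83 RPKM. The 3 endothelial markers measured summed to at most 0.089 RPKM in a library and the 3 leukocyte markers to at most 0.430.

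Of the 74 carriers, 34 had a mean of at least 1 RPKM over the 6 libraries and were tested, 20 were lower but reached 0.1 RPKM in some library, and 20 were under 0.1 RPKM in every library. With limma on log2(RPKM + 1), 11 of the 34 changed at an adjusted p under 0.05, which is 32.4%, against 25.0% of all 12476 genes tested. Of the 11, 9 fell and 2 rose. That is 26.5% lower against 17.5% of all genes, and 5.88% higher against 7.48%. The median log2 change of the 34 was -0.098, and that of all genes tested was -0.050. Scaling the libraries by the median of ratios moved the median of all genes to -0.003 and that of the carriers to -0.062, with 10 carriers called against 23.0% of all genes. Of these 6 were lower and 4 higher, against 10.8% and 12.2% of all genes. With limma-voom on recovered reads 14 carriers were called against 29.1% of all genes, 8 lower and 6 higher against 14.0% and 15.1%. The number of carriers called was 7 without GDF5 replicate 2 and 6 without GDF5 replicate 3, with 1 of them higher in each case, and 1 was also higher without control replicate 1. Those lower numbered 5 without GDF5 replicate 3.

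Changes are given as log2 differences of GDF5 minus control after adding 1 RPKM, so for weakly expressed genes they are smaller than the true fold. Of the 34 carriers tested, 18 had groups that did not overlap, 14 lower and 4 higher, which is 52.9% against 43.9% of all genes tested. Over all genes 30.4% were lower in this way and 13.5% higher. Of the 11 called carriers, 6 were called under each of the 12 alternative settings, among them SLC2A2, SLC34A2, SLC20A1, SLC20A2 and SLC12A7.

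**Figure D1:**
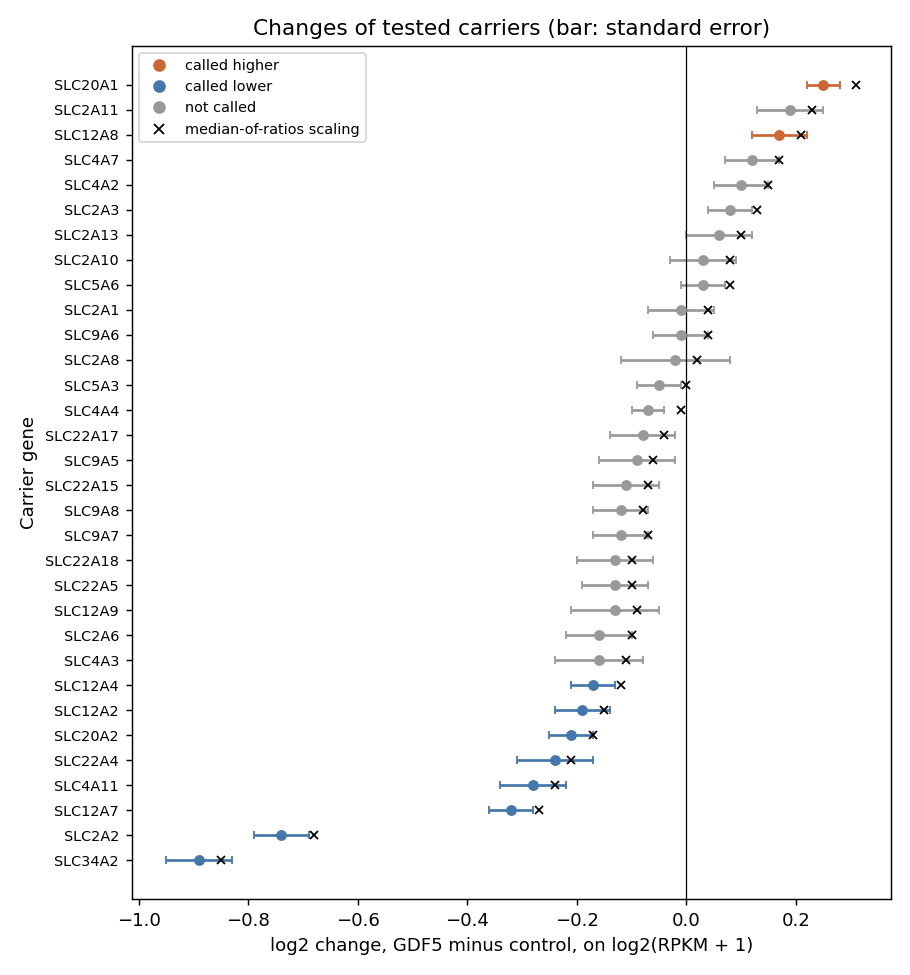
Log2 change of 32 of the 34 tested carriers, GDF5 minus control on the log2(RPKM + 1) scale (x axis), with the standard error as a bar. Colours mark the limma call, and crosses give the change after median-of-ratios scaling. SLC34A2 (-0.89) and SLC2A2 (-0.74) lie far to the left of the others, which range from -0.32 to 0.25.

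The promoters of the carriers with the largest falls, SLC34A2 and SLC2A2, and the largest rise, SLC20A1, are shown to set their sequences beside these opposite changes. Each is the reference sequence from RefSeq on GRCh38.p14, from 250 bases before to 50 bases after the gene's start, in the direction of transcription. Capitals mark the E-box CAGGTG on either strand, the form bound by Snail-type repressors. The stretches are chr3:171026671-171026970 on the minus strand for SLC2A2, chr4:25655601-25655900 on the plus strand for SLC34A2 and chr2:112645689-112645988 on the plus strand for SLC20A1.
SLC2A2: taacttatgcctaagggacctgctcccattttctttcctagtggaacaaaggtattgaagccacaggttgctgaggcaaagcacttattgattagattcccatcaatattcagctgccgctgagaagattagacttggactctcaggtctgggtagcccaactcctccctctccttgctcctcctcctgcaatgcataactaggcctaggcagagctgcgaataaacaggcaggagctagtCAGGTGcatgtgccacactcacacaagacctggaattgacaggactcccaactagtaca
SLC34A2: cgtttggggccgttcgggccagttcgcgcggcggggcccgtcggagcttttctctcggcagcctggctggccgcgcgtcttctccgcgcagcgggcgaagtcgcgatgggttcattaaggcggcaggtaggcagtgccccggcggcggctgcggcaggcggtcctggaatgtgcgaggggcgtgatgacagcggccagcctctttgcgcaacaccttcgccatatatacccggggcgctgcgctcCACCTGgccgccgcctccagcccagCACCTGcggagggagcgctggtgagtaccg
SLC20A1: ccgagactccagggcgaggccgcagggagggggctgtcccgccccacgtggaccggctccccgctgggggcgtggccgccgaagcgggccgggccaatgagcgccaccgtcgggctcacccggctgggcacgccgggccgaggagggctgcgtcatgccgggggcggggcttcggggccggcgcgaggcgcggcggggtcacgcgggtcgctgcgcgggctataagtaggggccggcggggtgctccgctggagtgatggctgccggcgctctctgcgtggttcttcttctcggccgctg
The SLC2A2 window held 1 such E-box, whose first base lay at position -9 from the start. The SLC34A2 window held 2, at -5 and 21, and the SLC20A1 window held none. Of all 35116 promoter windows of this length, 20.6% held the E-box, as did 20 of the 56 carrier promoters that could be matched. Among the 27 matched promoters of tested carriers 10 held it. Besides SLC2A2 and SLC34A2 these were SLC12A7, called lower, and SLC12A8, called higher. The rest were SLC2A8, SLC4A3, SLC4A4, SLC9A7, SLC9A8 and SLC22A5, which were not called. Whether the E-box goes with the changes was not tested. The windows were also searched on both strands for GGCGCC, a GC element of BMP-responsive genes, for the SMAD palindrome GTCTAGAC and for GTTAAT, an HNF1 half-site. None of these lay in the 3 windows shown. GGCGCC was in 19.2% of all promoters and 11 of the 56, GTTAAT in 6.88% and 6 of the 56, and GTCTAGAC in 0.202% and none of the 56. The windows also differed in base composition, with a GC content of 49.0% for SLC2A2, 70.7% for SLC34A2 and 77.7% for SLC20A1. Over the carriers matched, the median GC content was 71.0% for the 27 tested, 60.5% for the 16 low and 52.0% for the 13 under 0.1 RPKM, against 58.7% over all promoters. A match is a run of letters and not a shown binding site, and the RefSeq start of SLC34A2 lies inside the longer gene span that GENCODE gives.

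Phosphate carriers showed the largest single change, and they moved in opposite directions. SLC34A2 (ENSG00000157765, chromosome 4, 25648011 to 25678748) encodes the sodium-phosphate cotransporter NaPi-IIb, best known from intestine and lung. It was at 5.40, 6.02 and 5.64 RPKM in control replicates 1 to 3 and at 2.87, 2.42 and 2.51 RPKM in GDF5 replicates 1 to 3. Every GDF5 library was below every control library, and the GDF5 mean was 0.457 of the control mean. The log2 change was -0.89 with a standard error of 0.06 (limma adjusted p = 0.000147), the 32nd largest fall among the 12476 genes.

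SLC20A1 (ENSG00000144136, chromosome 2, 112645857 to 112663827) encodes PiT-1, a sodium-phosphate cotransporter found in most cell types. Its level was 22.9, 22.7 and 23.1 RPKM in the control libraries and 26.7, 27.3 and 28.7 RPKM in the GDF5 libraries. The groups did not overlap, and the log2 change of 0.25 (standard error 0.03, limma adjusted p = 0.00251) was the largest rise among the 34 carriers on this scale. Its relative SLC20A2 (ENSG00000168575, chromosome 8, 42416475 to 42541926), which encodes PiT-2, went the other way. SLC20A2 was at 3.38, 3.49 and 3.39 RPKM in control and at 2.74, 2.92 and 2.81 RPKM with GDF5, a log2 change of -0.21 (standard error 0.04, limma adjusted p = 0.0113). SLC20A2 shares exon sequence with SMIM19 on the other strand, and the sources used here do not say whether counting used strand.

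SLC34A1 encodes NaPi-IIa, the main apical phosphate carrier of the proximal tubule, and was below the tested level. It was at 0.437, 0.299 and 0.386 RPKM in control and at 0.244, 0.211 and 0.175 RPKM with GDF5. Those groups did not overlap, but the gene was not called when the test was widened to genes of at least 0.1 RPKM (log2 change -0.18, limma adjusted p = 0.120), and the authors' deposited table did not call it either. SLC34A3, the renal carrier NaPi-IIc, was at 0.408 ± 0.055 RPKM in control and 0.326 ± 0.086 RPKM with GDF5 (SD, n = 3 each), with overlapping groups.

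Summed over these 5 carriers the level was 32.8 ± 0.233 RPKM in control and 33.5 ± 0.838 RPKM with GDF5 (SD, n = 3 each). SLC20A1 made up 69.9 ± 0.621% of that sum in control and 82.2 ± 1.13% with GDF5. The part of SLC34A2 was 17.3 ± 0.872% in control and 7.77 ± 0.815% with GDF5. The sums overlapped between the groups, at 32.5 to 33.0 RPKM in control and 32.9 to 34.5 RPKM with GDF5.

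**Figure D2:**
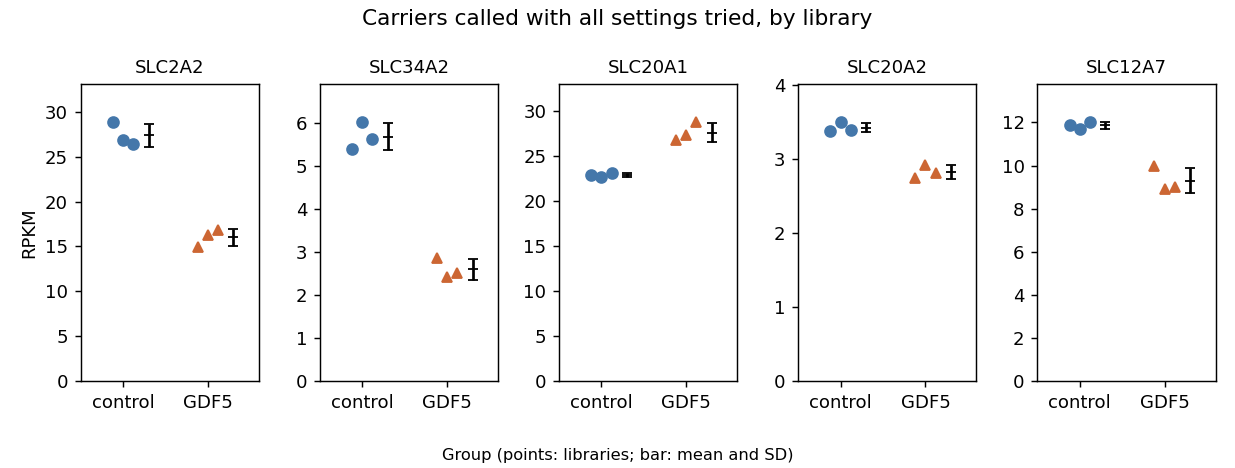
RPKM (y axes, each from 0) of 5 of the 6 carriers called under all 12 alternative settings, in control libraries (circles) and GDF5 libraries (triangles), with the mean and SD of 3 libraries as a bar. In none of the 5 do the groups overlap: SLC20A1 was higher with GDF5 and the other 4 were lower.

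Among the facilitative sugar carriers of the SLC2 family, 14 were listed and 8 tested, of which 1 changed (12.5%, against 25.0% of all genes tested). SLC2A2 (ENSG00000163581, chromosome 3, 170996348 to 171026750) encodes GLUT2, the carrier by which glucose leaves the tubule cell on its basolateral side. It stood at 28.8, 26.9 and 26.4 RPKM in control and at 14.9, 16.3 and 16.8 RPKM with GDF5. The groups lay far apart, and the GDF5 mean was 0.585 of the control mean. The log2 change was -0.74 with a standard error of 0.05 (limma adjusted p = 0.000197), the 61st largest fall of all genes tested.

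SLC2A1 (ENSG00000117394, chromosome 1, 42925375 to 42959176) encodes GLUT1, the glucose carrier of most cultured cells, and had the highest mean level of all 74 carriers. It was at 31.7, 30.7 and 31.9 RPKM in control and at 34.1, 29.8 and 29.7 RPKM with GDF5. GDF5 replicate 1 was above all other libraries, the groups overlapped, and the log2 change of -0.01 was not called (limma adjusted p = 0.884). Its sign turned with median-of-ratios scaling (0.042). SLC2A1 shares exon sequence with other genes on both strands, SLC2A1-AS1 among them. In control cells SLC2A2 was thus at nearly the level of SLC2A1, with a ratio of 0.870 ± 0.0404 between their RPKM, and with GDF5 the ratio was 0.517 ± 0.0714 (SD, n = 3 each). SLC2A2 made up 31.9 ± 1.14% of the summed SLC2 level in control and 21.5 ± 1.97% with GDF5. The summed SLC2 level itself was 85.8 ± 2.12 RPKM in control and 74.5 ± 2.14 RPKM with GDF5.

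The other 6 tested sugar carriers were not called. SLC2A6, a lysosomal member of the family, was at 10.3 ± 0.815 and 9.16 ± 0.527 RPKM, and SLC2A3 (GLUT3) at 6.03 ± 0.126 and 6.44 ± 0.245 RPKM, in control and GDF5 libraries. With median-of-ratios scaling SLC2A3 (log2 change 0.13, limma adjusted p = 0.0463) and SLC2A11 (0.23, limma adjusted p = 0.0319) were called higher. SLC2A3 has a near-identical relative, SLC2A14, and SLC2A11 shares exons with neighbouring genes, so both values are uncertain. SLC2A11 was at 2.28, 2.66 and 2.46 RPKM in control and at 3.02, 3.02 and 2.77 RPKM with GDF5.

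A pair of sugar carriers below the tested level had groups that did not overlap and were called higher in the authors' deposited table. SLC2A12 (GLUT12) was at 0.224, 0.179 and 0.163 RPKM in control and at 0.365, 0.421 and 0.354 RPKM with GDF5. SLC2A5, the fructose carrier GLUT5, was at 0.443, 0.535 and 0.415 RPKM in control and at 0.697, 0.601 and 0.723 RPKM with GDF5. The authors' deposited table gave log2 fold changes of 1.07 (adjusted p = 0.00167) for SLC2A12 and 0.61 (adjusted p = 0.0126) for SLC2A5. With genes of at least 0.1 RPKM tested here, neither was called (limma adjusted p = 0.0539 and 0.0997). SLC2A12 shares exon sequence with TBPL1 on the other strand, and SLC2A4 also overlaps a gene there. SLC2A4, the insulin-regulated GLUT4 of muscle and fat, was at 0.346 and 0.363 RPKM, and SLC2A9, a urate carrier, at 0.495 and 0.497 RPKM in control and GDF5 libraries.

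The sodium-coupled glucose carriers of the tubule were below the tested level. SLC5A1, which encodes SGLT1, had 4 recovered reads over all 6 libraries and was at 0 RPKM in 4 of them, with 0.0087 RPKM in control replicate 2 and 0.0073 RPKM in GDF5 replicate 3. SLC5A2, which encodes SGLT2, the target of the gliflozin drugs in diabetes, was at 0.261, 0.233 and 0.396 RPKM in control and at 0.240, 0.270 and 0.210 RPKM with GDF5. Its groups overlapped, and it shares exon sequence with C16orf58 on the other strand, so even this low level is uncertain. Of the 9 SLC5 genes listed 2 were tested, and neither was called, where 25.0% of all genes tested were. These were SLC5A6, a vitamin carrier for biotin and pantothenate (6.39 ± 0.075 and 6.57 ± 0.321 RPKM), and SLC5A3, the myo-inositol carrier of osmotic stress (6.59 ± 0.233 and 6.32 ± 0.209 RPKM). SLC5A6 shares exon sequence with ATRAID on the other strand and SLC5A3 with MRPS6 on the same strand.

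**Figure D3:**
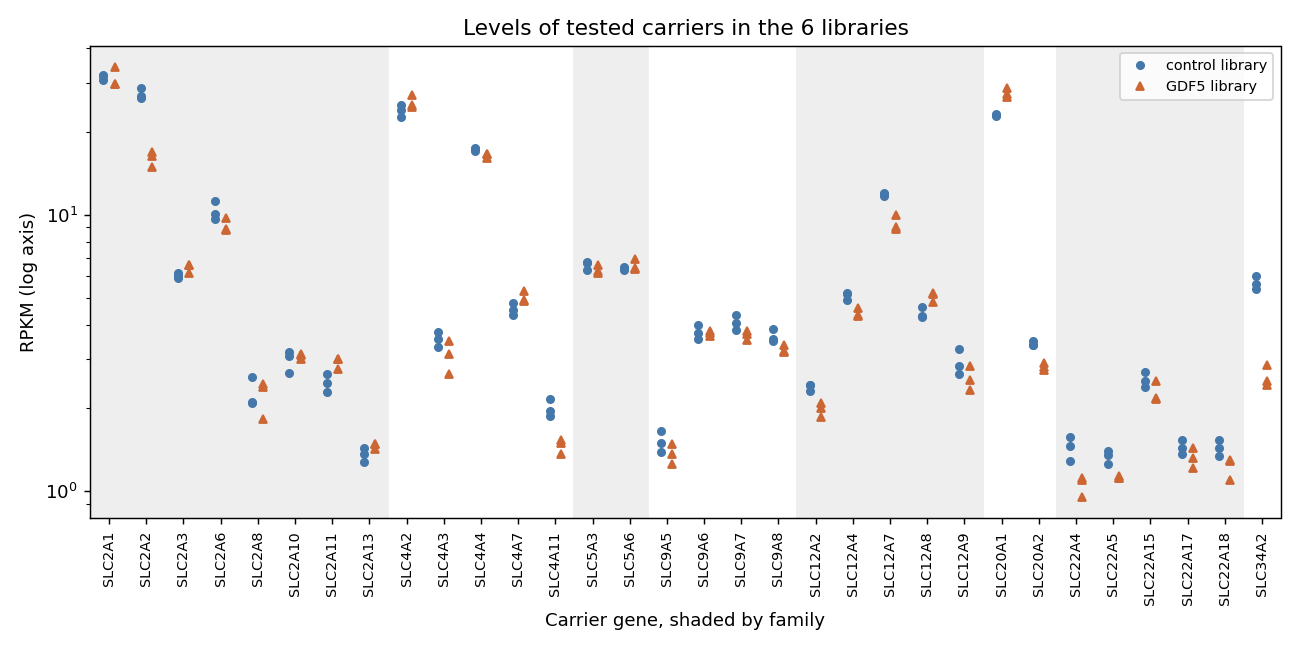
RPKM on a log axis (y) of 32 of the 34 tested carriers, ordered and shaded by family (x), with 1 circle per control library and 1 triangle per GDF5 library. SLC2A1, SLC2A2, SLC4A2, SLC4A4 and SLC20A1 form the top of the range, and the triangles sit clearly below the circles for SLC2A2 and SLC34A2.

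The potassium-chloride and sodium-potassium-chloride cotransporters of the SLC12 family set cell volume and chloride. Of 9 listed 6 were tested, and 4 (66.7%) fell and 1 (16.7%) rose, against 17.5% and 7.48% of all genes, with a median log2 change of -0.177. With median-of-ratios scaling 2 fell and 1 rose, and the median was -0.134. SLC12A7 (KCC4, chromosome 5, 1050376 to 1112035), the carrier with the highest level in the family, was at 11.9, 11.7 and 12 RPKM in control and at 9.96, 8.91 and 9.03 RPKM with GDF5. Its log2 change was -0.32 with a standard error of 0.04 (limma adjusted p = 0.00294). Every GDF5 library was below every control library.

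The other SLC12 calls were smaller and depended on single libraries. SLC12A4 (KCC1) was at 5.09 ± 0.170 RPKM in control and 4.42 ± 0.168 RPKM with GDF5 (log2 change -0.17, limma adjusted p = 0.0256). SLC12A2 (NKCC1), the basolateral chloride uptake carrier of secretory cells, was at 2.39 ± 0.067 RPKM in control and 1.98 ± 0.114 RPKM with GDF5 (log2 change -0.19, limma adjusted p = 0.0359). SLC12A8, described as a nicotinamide mononucleotide carrier in mouse, rose from 4.41 ± 0.207 to 5.07 ± 0.212 RPKM (log2 change 0.17, limma adjusted p = 0.0369). None of the 3 had overlapping groups. SLC12A4 shares exon sequence with LCAT on the same strand.

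The call of SLC12A2 ended in each fit without 1 library (limma adjusted p = 0.0614 to 0.0977). That of SLC12A4 ended without control replicate 1 (0.0806) or 3 (0.0711) and without GDF5 replicate 2 (0.0925) or 3 (0.0873). That of SLC12A8 ended without control replicate 1 (0.103) or 2 (0.0969) and without GDF5 replicate 2 (0.121) or 3 (0.118). Over the 12 alternatives the limma adjusted p ran from 0.0179 to 0.102 for SLC12A2, from 0.0241 to 0.0925 for SLC12A4 and from 0.00492 to 0.121 for SLC12A8. With median-of-ratios scaling SLC12A2 (0.0817) and SLC12A4 (0.0713) were not called.

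Of the 10 bicarbonate carriers and relatives of the SLC4 family 5 were tested, 1 was low and 4 were under 0.1 RPKM in every library. SLC4A2 and SLC4A4 were among the 5 carriers with the highest levels, and neither was called. SLC4A4 (chromosome 4, 71062667 to 71572087) encodes NBCe1, through which bicarbonate leaves the proximal tubule cell for the blood. It was at 17.4, 17.0 and 17.3 RPKM in control and at 16.0, 16.6 and 16.6 RPKM with GDF5. The groups did not overlap, but the log2 change of -0.07 was not called (limma adjusted p = 0.138) and was -0.01 with median-of-ratios scaling. SLC4A2 (AE2), a chloride-bicarbonate exchanger and the highest of the family, was at 23.8 ± 1.25 RPKM in control and 25.5 ± 1.38 RPKM with GDF5, with overlapping groups (limma adjusted p = 0.199). It was called higher with limma-voom on recovered reads (limma adjusted p = 0.0120, and 0.0120 to 0.446 over the 12 alternatives) and in the authors' deposited table. SLC4A2 shares exon sequence with CDK5 on the other strand.

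SLC4A11, a borate-transporter relative that conducts protons, was the 1 SLC4 gene called. Its level was 1.95, 1.87 and 2.15 RPKM in control and 1.5, 1.53 and 1.37 RPKM with GDF5. The groups did not overlap, and the log2 change was -0.28 with a standard error of 0.06 (limma adjusted p = 0.0166). Leaving out GDF5 replicate 3 ended the call (limma adjusted p = 0.0616), as did testing without a filter (0.0614). Over the 12 alternatives it was 0.00832 to 0.0616.

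None of the 5 tested sodium-proton exchangers of the SLC9 family was called, where 25.0% of all genes tested were. SLC9A3 (NHE3), the apical exchanger that carries most sodium uptake in the proximal tubule, was at 0.283, 0.208 and 0.258 RPKM in control and at 0.295, 0.178 and 0.154 RPKM with GDF5. Its groups overlapped, and it shares exons with genes on both strands, so its level is uncertain.

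Among the organic ion carriers of the SLC22 family 5 of 14 listed were tested, with log2 changes from -0.24 to -0.08. Their median was -0.127, where that of all genes tested was also below 0, at -0.050. With median-of-ratios scaling the medians were -0.095 and -0.003. SLC22A4 (OCTN1), a carrier of ergothioneine, was called. It stood at 1.29, 1.57 and 1.46 RPKM in control and at 0.957, 1.12 and 1.10 RPKM with GDF5, a log2 change of -0.24 (standard error 0.07, limma adjusted p = 0.0428). SLC22A4 shares exon sequence with MIR3936HG on the other strand. The groups did not overlap, yet the call ended with median-of-ratios scaling (0.0705) and without control replicate 2 (0.111) or 3 (0.102) or GDF5 replicate 1 (0.101), 2 (0.0869) or 3 (0.0935). Over the 12 alternatives its limma adjusted p was 0.0469 to 0.139.

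SLC22A5 (OCTN2), the carnitine carrier, was at 1.40, 1.26 and 1.35 RPKM in control and at 1.14, 1.12 and 1.12 RPKM with GDF5. Its groups did not overlap, but it was not called (log2 change -0.13, limma adjusted p = 0.133). Like SLC22A4 it shares exon sequence with MIR3936HG. The highest member was SLC22A15, at 2.54 ± 0.166 RPKM in control and 2.28 ± 0.189 RPKM with GDF5, with overlapping groups. The summed SLC22 level was 9.80 ± 0.120 RPKM in control and 8.30 ± 0.231 RPKM with GDF5 (SD, n = 3 each).

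The carriers known for tubular transport in the kidney were mostly below the tested level in both groups. Of 28 transporters known from the proximal tubule, 20 were measured: 5 reached the tested level, 6 were low, and 9 were under 0.1 RPKM in every library. The 5 tested were SLC2A2, SLC4A4, SLC20A2, SLC22A4 and SLC22A5, and 3 of them fell, as above, where 17.5% of all genes tested fell. With median-of-ratios scaling SLC2A2 and SLC20A2 were still called and SLC22A4 was not, where 10.8% of all genes fell. The authors' deposited table called only SLC2A2 of the 3. The 6 low ones were SLC2A5, SLC2A9, SLC5A2, SLC9A3, SLC34A1 and SLC34A3. The other 8 were SLC5A8, SLC5A12, SLC13A1, SLC13A2, SLC22A6, SLC22A8, SLC22A12 and SLC22A24. They were not found by these symbols among the genes listed, so no level can be given for them.

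The 9 silent proximal tubule carriers were SLC5A1, SLC5A10, SLC13A3, SLC22A2, SLC22A7, SLC22A11, SLC22A13, SLC47A1 and SLC47A2. SLC22A2 (OCT2), the basolateral cation carrier that brings metformin into the tubule cell, was at 0.021, 0.022 and 0.042 RPKM in control and at 0.033, 0.0076 and 0.031 RPKM with GDF5. SLC47A1 (MATE1), which passes the same cations on into urine, had 9 recovered reads over the 6 libraries. SLC22A7 (OAT2) had 6 reads, all in GDF5 replicates 1 and 3, and SLC22A13, a urate and nicotinate carrier, had 5. At such counts a difference between the groups was not detectable.

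Of 6 transporters of more distal segments none was tested. SLC12A1 (NKCC2), the target of loop diuretics in the thick ascending limb, was at most 0.0086 RPKM in a library. SLC12A3 (NCC), the thiazide target of the distal convoluted tubule, was at 0.132, 0.018 and 0.029 RPKM in control and at 0, 0.015 and 0.027 RPKM with GDF5. Control replicate 1 stood apart there, and it alone kept SLC12A3 from counting as silent. SLC4A1, SLC4A9 and SLC9A4 were under 0.1 RPKM throughout, and SLC9A2 was at 0.162 and 0.171 RPKM in control and GDF5 libraries. The SLC13 and SLC47 families had no tested member. SLC13A4, a sulfate carrier, led SLC13 at 0.148, 0.177 and 0.171 RPKM in control and 0.131, 0.134 and 0.136 RPKM with GDF5, and SLC47A2 (MATE2-K) led SLC47 with 29 reads in all. SLC13A4 shares exon sequence with STMP1 on the other strand. Of the tubule carriers under 0.1 RPKM, SLC4A9, SLC5A10, SLC12A1, SLC13A3, SLC22A7 and SLC47A1 also share exon sequence with other genes, SLC12A1 with CTXN2. Over all 20 silent carriers the reads recovered from the 6 libraries together were 4 to 79 per gene, with a median of 17.

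**Figure D4:**
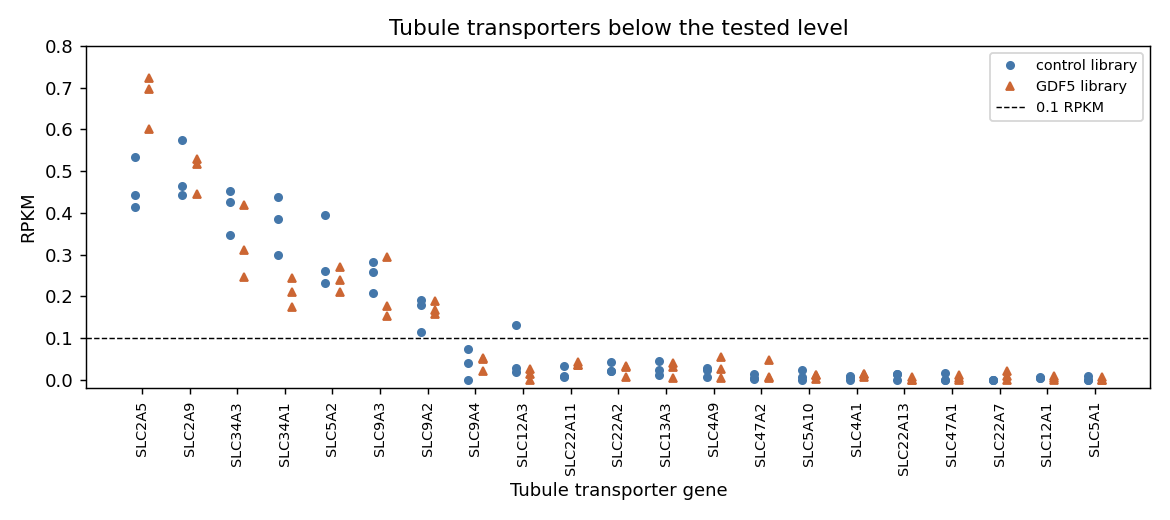
RPKM (y axis) of the 21 tubule transporters below the tested level, ordered by mean (x axis), with 1 circle per control library and 1 triangle per GDF5 library. The dashed line marks 0.1 RPKM. Carriers from SLC9A4 rightwards lie under it, except for SLC12A3 in control replicate 1.

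Genes that work with these carriers also went both ways. Of 48 partner genes, 32 were tested, and 5 rose and 8 fell, where 7.48% of all genes rose and 17.5% fell. With median-of-ratios scaling 6 rose and 5 fell, against 12.2% and 10.8% of all genes. Their median log2 change was -0.065, where that of all genes tested was -0.05. With median-of-ratios scaling the medians were -0.02 and -0.003. The number lower was 5 without control replicate 1, control replicate 3 or GDF5 replicate 2.

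Regulators of sugar carriers were among the partner genes that fell. TXNIP, which promotes removal of GLUT1 from the cell surface, was at 58.4, 63.5 and 56.1 RPKM in control and at 33.6, 35.4 and 33.9 RPKM with GDF5 (log2 change -0.77, limma adjusted p = 0.000102). PDZK1IP1 (MAP17), an activating partner of SGLT2, fell from 68.9 ± 1.67 to 45.5 ± 0.834 RPKM (log2 change -0.59). It was thus abundant in cells where SLC5A2 was at 0.297 ± 0.087 RPKM in control.

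On the phosphate side, XPR1, the phosphate exporter, rose from 14.8 ± 0.346 to 17.2 ± 0.120 RPKM (log2 change 0.20, limma adjusted p = 0.00401). KL, which encodes Klotho, a co-receptor for the phosphate hormone FGF23, rose from 9.72 ± 0.168 to 13 ± 0.351 RPKM (log2 change 0.38, limma adjusted p = 0.000436). PDZK1, a scaffold for apical carriers, went from 36.9 ± 3.38 to 30.2 ± 2.59 RPKM (log2 change -0.28, limma adjusted p = 0.0414). Its call ended with median-of-ratios scaling (0.0906) and in each fit without 1 library (0.0600 to 0.0926), with 0.0127 to 0.151 over the 12 alternatives.

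The WNK and SPAK kinases regulate the SLC12 carriers. WNK1 rose (log2 change 0.17), while STK39, which encodes SPAK (-0.32), and CAB39, which encodes its activator MO25 alpha (-0.30), fell. STK39 went from 11.1 ± 0.176 to 8.74 ± 0.861 RPKM and CAB39 from 31.0 ± 0.650 to 25.0 ± 0.542 RPKM. The sodium pump subunits ATP1B1 and ATP1B3 were not called. Of the pump's small regulators, FXYD5 rose from 32.1 ± 0.758 to 40.8 ± 1.68 RPKM (log2 change 0.34) and FXYD2 fell from 1.58 ± 0.052 to 0.958 ± 0.111 RPKM (log2 change -0.40).

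Of the carbonic anhydrases, which supply bicarbonate and protons, the membrane enzyme CA12 rose from 1.98 ± 0.039 to 3.19 ± 0.192 RPKM (log2 change 0.49, limma adjusted p = 0.000831). The cytosolic CA2 went from 25.6 ± 1.16 to 22.6 ± 1.17 RPKM (log2 change -0.18, limma adjusted p = 0.0357). The calls of CA2 (0.0974) and of BSG, the chaperone of lactate carriers (log2 change -0.17), ended with median-of-ratios scaling, BSG at 0.126. That of CA2 also ended without control replicate 1 (0.101) or 3 (0.0985) and GDF5 replicate 1 (0.0751) or 2 (0.108), with 0.0329 to 0.113 over the 12 alternatives. That of BSG ended in each fit without 1 library but that without GDF5 replicate 1, with 0.0063 to 0.136 over the 12 alternatives.

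The authors' deposited table called 12 of the 74 carriers against 8.73% of the genes it tested. Of the 12, 7 were higher and 5 lower, against 4.91% and 3.82% of the genes it tested. Of these 7 were also called here in the same direction. SLC2A11, SLC4A2 and SLC4A7, a sodium-bicarbonate cotransporter at 4.55 ± 0.242 RPKM in control and 5.03 ± 0.231 RPKM with GDF5, were called higher by the authors and not here. SLC12A2, SLC12A4, SLC20A2 and SLC22A4 were called lower here and not by the authors. Among the 20 carriers under 0.1 RPKM the authors called none.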

How the data were processed

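RNA from 6 libraries was compared, 3 control and 3 GDF5, grouped by their titles. The GRCh38 build and the tools HISAT2 and DESeq2 are named per the submitters' processing notes, without versions. Neither counter nor annotation is stated there. The table was present as 2 identical files and 1 was read. The authors deposited RPKM per library, as the values showed, since the file headers name no unit. Mean signal per group (reads divided by size factors), a log2 fold change, a p-value and an adjusted p-value were also deposited by the authors, and are used only where their table is named.

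Reads were recovered from the RPKM steps and group means. All 64501 recovered values below 20 (100%) were whole to within 0.1, and 63.6% were even, so both mates may often have been counted. Lengths lay within 5% of GENCODE 29 for 80.2% of 14515 genes. Genes with a mean of at least 1 RPKM were tested with limma 3.58.1 (R 4.3.3) on log2(RPKM + 1), with an intensity trend, two-sided, adjusted by Benjamini-Hochberg over all 12476 genes. The fit was checked beforehand with simulated counts. The design's edgeR option for counts did not apply. Exon overlaps of at least 50 bases with other GENCODE genes are named for the carriers described, whose values are then uncertain. Alternatives were a pseudocount of 0.1, no filter, a filter at 0.1 RPKM, median-of-ratios scaling, a replicate block, limma-voom on recovered reads, and leaving out each library.

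The members and lists were chosen with earlier results of these data known. Named were all called members, the highest member of each family, the 5 highest of all, the tubule transporters and the called partner genes, except for genes that are not reported here. Other members appear as examples, chosen after their values were seen. Motifs were also chosen so.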

Additional observations from a re-analysis of the deposited data

How the results depend on the processing

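Of the 18 tested carriers followed through 12 alternatives, all kept their direction except SLC2A1, with 0.042 after median-of-ratios scaling, 0.045 with limma-voom and -0.077 to 0.021 without 1 library, and SLC5A6, with -0.001 to 0.054 without 1 library. None of these was called. The carriers called numbered 11 (2 higher, 9 lower). Without a filter they numbered 6 (1 higher, 5 lower), and with the filter at 0.1 RPKM 1 was higher. With median-of-ratios scaling 4 and with limma-voom 6 were higher. Without 1 library the count was 6 to 9, with 1 to 2 higher and 5 to 7 lower. Of all genes 3116 were called (933 higher, 2183 lower), 1812 without a filter (590 higher, 1222 lower), 1524 higher and 1343 lower with median-of-ratios scaling, and 1879 higher with limma-voom. Without 1 library the count was 1760 to 3099, with 538 to 940 higher and 1222 to 2159 lower. Partner genes lower numbered 8, or 5 without a filter, with the filter at 0.1 RPKM or with median-of-ratios scaling, and 5 to 7 without 1 library, and 8 were higher with limma-voom. The cause of these shifts was not tested.

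Same-numbered libraries' deviations from their group means correlated at -0.037, 0.057 and -0.031, so no shared effect of the replicate number was seen. These values cannot settle whether the libraries were prepared as pairs. With the replicate number as a block 7 carriers were called, 1 of them higher, and the count over all genes was 2167. The block ended the calls of SLC4A11 (limma adjusted p = 0.0562), SLC12A2 (0.0831), SLC12A8 (0.0641) and SLC22A4 (0.0611). Depth limits the carriers under 0.1 RPKM, which had 4 to 79 reads in all.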
